A study of Mus musculus with 17 samples.

Results

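Gene expression arrays of 17 abdominal neuroblastomas from TH-MYCN mice were ordered by Adm, the gene for adrenomedullin, a vasodilator peptide. The 5 tumors with the highest level (Adm-high) were compared with the 5 with the lowest level (Adm-low), so 10 of 17 tumors entered the comparison and 7 lay between. All tumors came from hemizygous TH-MYCN mice on 1 inbred background, where the rat tyrosine hydroxylase promoter expresses a human MYCN transgene in neural crest cells. Every tumor carried this transgene and the labels place all of them in a single group with no treatment. They give no age, sex or weight for a tumor. The study gives an age range, a count of each sex and a weight with its spread only for its arrayed tumors as a whole. Each array held RNA of 1 tumor, and the study does not say whether the whole tumor or a piece was extracted.

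The groups were chosen by the measured level of Adm, so they are not groups of the study's design and Adm itself was not tested. Adm, on the log2 scale of the deposited values, was 12.50, 12.50, 12.36, 12.08 and 11.81 in the Adm-high tumors mad554, mad551, mad560, mad561 and mad564. It was 10.59, 10.41, 10.31, 10.12 and 10.07 in the Adm-low tumors mad556, mad553, mad550, mad565 and mad559. Values for other genes are given in these orders throughout. The nearest tumors outside the groups were mad563 at 11.64 and mad549 at 10.84. A dimmer Adm probe set would have placed 9 of the 10 tumors in the same groups, with mad563 in the place of mad564.

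As background, cells that lack oxygen stabilise the alpha subunits of the hypoxia-inducible factors (HIF), which prolyl hydroxylases otherwise mark for destruction through the von Hippel-Lindau protein. HIF then raises genes for glucose uptake, glycolysis, vessel growth and pH control, and Adm is among its well known targets. In tumors, Vegfa and Adm are often both raised in regions short of oxygen. Neuroblastoma cells derive from sympathoadrenal precursors, which make and store catecholamines and neuropeptides in dense-core vesicles.

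The tumors carried the markers of that lineage. Th, the rate-limiting enzyme of catecholamine synthesis, lay between 11.73 and 14.33 in the 10 tumors, where array medians ran from 6.28 to 6.51. The lowest correlation between any 2 of the 17 arrays was 0.969. Skeletal muscle genes stood apart in mad553 and mad550 of the Adm-low tumors, where the mean of 10 muscle genes was 12.17 and 10.73, against 5.74 to 6.38 in the Adm-high tumors. Liver genes stood apart in mad559, at a list mean of 7.39. Xist, the RNA of the inactive X chromosome, was 5.82, 13.55, 13.61, 7.29 and 13.49 in the Adm-high and 13.62, 8.03, 13.52, 12.84 and 13.50 in the Adm-low tumors. Arrays of RNA from mixed tumor tissue cannot tell fewer cells of a type from less RNA per cell. The 17 tumors came with no stated batch, and their number limits the precision.

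Of 18192 genes tested beside Adm, 15 were higher (0.0825%) and 3 lower (0.0165%) in the Adm-high tumors at an adjusted p under 0.05 (limma, Benjamini-Hochberg). The higher genes were Pomc, Npy, Vgf, Doc2b, Slc2a13, Resp18, C2cd4b, Galnt6, Slc35d3, Slc18a1, Dbh, Rph3al, Vegfa, Unc13a and Ndrg4. The lower genes were Car3, Lrg1 and Car2. Npy, Slc18a1 and Dbh are members of the sympathoadrenal list, and Vegfa was the only called member of the hypoxia lists. Of the 18 adjusted p values, 9 were tied at 0.0494, and the next gene was at 0.0534. Leaving out single tumors changed the counts. The higher genes numbered 2 without mad561, 4 without mad560 or mad556, 5 without mad554, 6 without mad550 or mad559, 9 without mad551, mad553 or mad564, and 14 without mad565. The lower genes numbered 1 without any of mad553, mad554, mad560, mad561 or mad564, 2 without mad551 or mad565, 3 without mad556 and 4 without mad550 or mad559. Npy, Slc2a13 and Lrg1 passed in all 10 of these fits, Dbh in 9 and Vegfa in 1.

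At an unadjusted p under 0.05, 1358 genes were higher (7.46%) and 493 lower (2.71%) in the Adm-high tumors. When each array was centred on its own median, 834 were higher (4.58%) and 845 lower (4.64%). The median difference over all genes moved from 0.04 to -0.01 on the log2 scale with this centring, so the split between higher and lower genes at this p changed with the scaling.

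**Figure D1:**
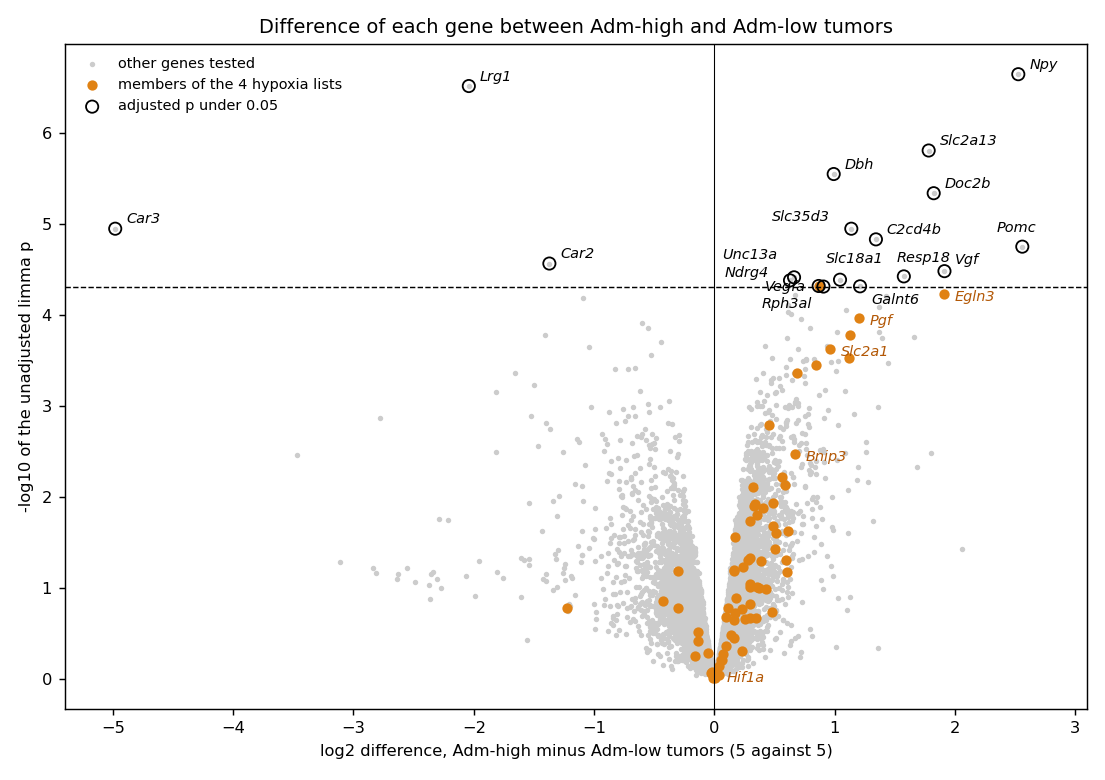
Each point is 1 of 18192 genes, placed by its log2 difference between 5 Adm-high and 5 Adm-low tumors and by -log10 of its unadjusted limma p. Rings mark the 18 genes with an adjusted p under 0.05, orange points the measured members of the 4 hypoxia lists, and the dashed line the weakest call; Egln3 lies just under it at a difference of 1.91.

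The proximal promoters of the 2 called genes with the largest positive differences, Npy and Pomc, and of Vegfa are shown because hypoxia-inducible factors bind a short core, ACGTG or GCGTG, read on either strand. The sequences are the 250 bases before the transcription start in RefSeq, build GRCm38.p6, 5′ to 3′ on the gene's strand, with any core in capitals. They lie at chr6:49822460-49822709 on the plus strand for Npy, at chr12:3954695-3954944 on the plus strand for Pomc, and at chr17:46032378-46032627 on the minus strand for Vegfa.
Npy: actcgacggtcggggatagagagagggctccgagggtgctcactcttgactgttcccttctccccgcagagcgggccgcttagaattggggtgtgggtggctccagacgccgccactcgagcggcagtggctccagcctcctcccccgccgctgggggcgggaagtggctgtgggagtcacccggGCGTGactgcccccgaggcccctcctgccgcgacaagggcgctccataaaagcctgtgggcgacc
Pomc: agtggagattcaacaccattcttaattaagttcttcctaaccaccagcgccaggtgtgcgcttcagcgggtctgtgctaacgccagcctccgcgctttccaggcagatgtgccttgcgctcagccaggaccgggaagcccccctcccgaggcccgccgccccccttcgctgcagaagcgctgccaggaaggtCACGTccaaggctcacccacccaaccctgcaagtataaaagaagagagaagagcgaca
Vegfa: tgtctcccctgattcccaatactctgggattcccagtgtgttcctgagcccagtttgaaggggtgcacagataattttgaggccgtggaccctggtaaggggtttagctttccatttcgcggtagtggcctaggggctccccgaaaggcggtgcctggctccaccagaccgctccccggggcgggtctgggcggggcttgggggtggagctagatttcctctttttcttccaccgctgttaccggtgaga
The Npy window held 1 core at position -65 from the start and the Pomc window 1 at -58. The Vegfa window at this start held none, which says only that these letters are not in it. A further Vegfa start listed in RefSeq has its window at chr17:46025164-46025413 on the minus strand, and that window held 2 cores, the farther at -218. On that strand this window lies downstream of the first start. Its cores are therefore inside the gene and not in the promoter before that start. Windows of such later starts are counted in the shares below. Over all genes called higher, 9 of 12 with a listed promoter held a core in any of its windows (75%). Of the hypoxia list members 46 of 59 did (78%), and among those with a positive difference at an unadjusted p under 0.05, 21 of 23. The core stood in 53.6% of 14451 tested genes with a promoter and in 38.6% of all 32851 promoters. A match is a description of the letters and not a site of binding.

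Secreted factors that act on vessels were the hypoxia genes nearest to Adm's own role. Vegfa, the main growth factor of endothelial cells, was 9.19, 9.19, 8.76, 8.89 and 8.87 in the Adm-high and 8.08, 7.97, 8.20, 7.80 and 8.51 in the Adm-low tumors. No value overlapped between the groups, although mad559, the tumor with the least Adm, had the highest Vegfa of its group. The log2 difference was 0.87 (SE 0.14, n = 5 and 5), a 1.82-fold higher level, with an adjusted p of 0.0494 from limma. A dimmer probe set of Vegfa differed by 0.26. The call was lost without each tumor other than mad559, at adjusted p values of 0.0731 to 0.126, with the difference between 0.79 and 0.92. Pgf, placental growth factor, which binds the same receptor family, was 7.94, 8.56, 8.66, 8.79 and 8.03 against 6.76, 7.19, 7.02, 7.77 and 7.23, a difference of 1.20 (limma adjusted p = 0.0691). Angpt2, which loosens vessel walls by opposing Tie2 signalling, differed by 0.69 (limma adjusted p = 0.119). Angptl4, a lipoprotein lipase inhibitor and a common HIF target, differed by 0.04 (limma adjusted p = 0.976), with 8.37 to 10.20 in the Adm-low tumors around 8.48 to 9.47 in the Adm-high ones. Of 11 measured factors in this list, 5 had a positive difference at an unadjusted p under 0.05 (45.5%, beside 7.46% of all genes). None had a negative one (beside 2.71%). The median difference of the 11 was 0.37, against 0.04 over all genes.

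**Figure D2:**
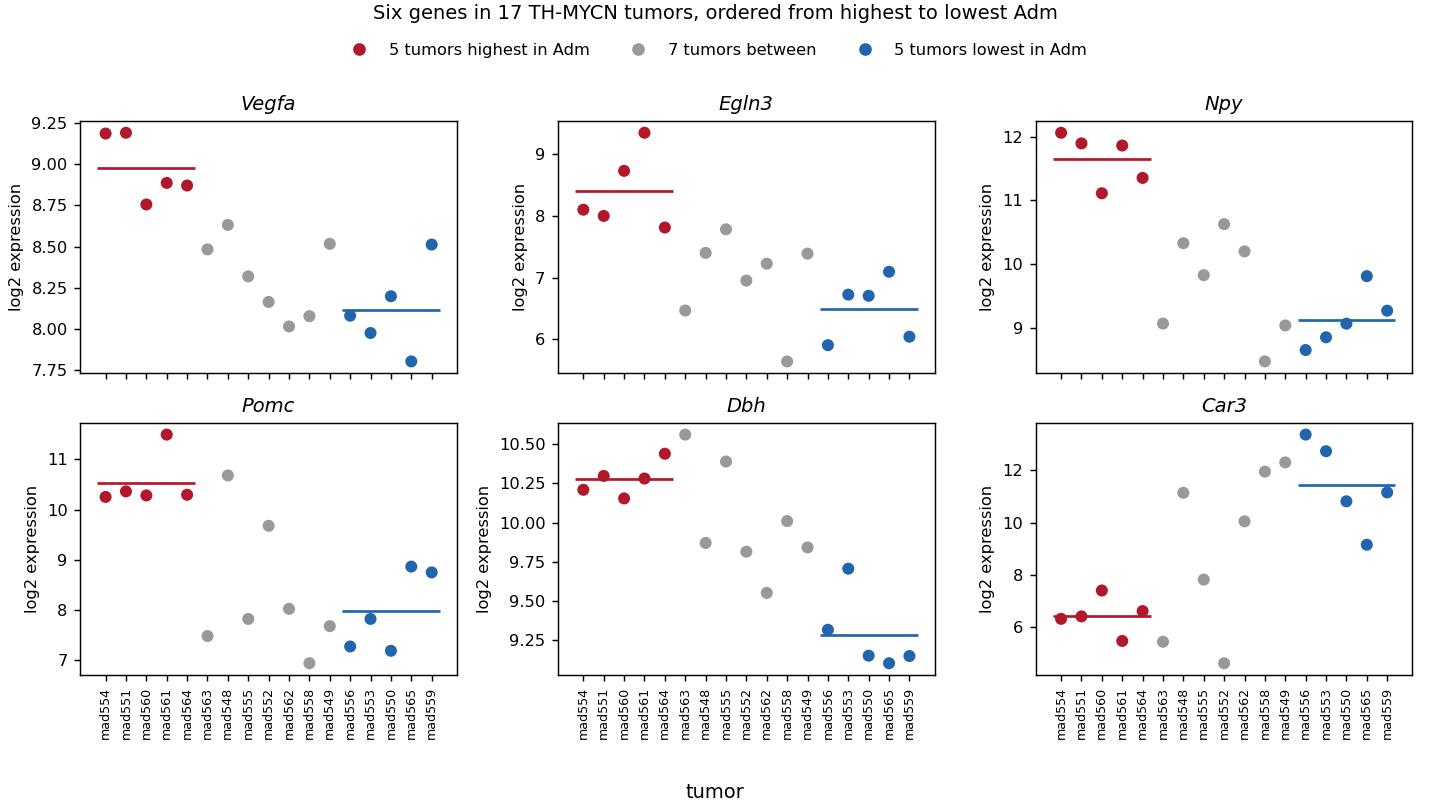
Log2 expression of 6 genes in each of 17 tumors, ordered from the highest to the lowest Adm; red, grey and blue mark Adm-high, middle and Adm-low tumors and lines the means of 5 tumors. All 6 were called except Egln3, which was next by adjusted p. Their red and blue points do not overlap, as for 307 of all genes in the higher direction (1.69%) and 68 in the lower (0.374%). The grey points range widely, for example from 6.94 to 10.68 for Pomc and from 4.64 to 12.29 for Car3.

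The glycolysis list covers glucose uptake, the glycolytic enzymes and lactate export. Of 17 measured members, 10 had an unadjusted p under 0.05 and a positive difference (58.8%, against 7.46% of all genes), none had a negative one, and none passed after adjustment over all genes. Slc2a1, the glucose transporter GLUT1, was 10.38, 9.75, 10.03, 10.68 and 9.91 in the Adm-high and 8.79, 9.53, 9.11, 9.24 and 9.28 in the Adm-low tumors. Its groups did not overlap, its difference was 0.96 (SE 0.18, limma adjusted p = 0.0965), and its 3 probe sets differed by 0.96 to 1.07. Pfkl, the liver form of phosphofructokinase, differed by 0.84 (SE 0.17, limma adjusted p = 0.113) and was highest in mad554 at 11.70. Slc16a3, a lactate exporter, differed by 0.45 (limma adjusted p = 0.205). Its values of 5.12 to 6.08 in the 10 tumors lie below the median of every array. The abundant enzymes of the lower pathway differed less. Tpi1 differed by 0.40, Pkm by 0.33, Pgam1 by 0.32, Pgk1 by 0.30 and Ldha, lactate dehydrogenase A, by 0.16. The groups overlapped for each of these enzymes, at limma adjusted p values of 0.333 to 0.518. Hk2, which traps glucose in the cell, differed by 0.36 with overlapping groups (limma adjusted p = 0.563).

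The oxygen-sensing machinery itself gave a single large difference. Egln3, an oxygen-dependent prolyl hydroxylase that HIF induces in many cells, was 8.10, 8.0, 8.73, 9.35 and 7.81 in the Adm-high tumors and 5.90, 6.72, 6.70, 7.09 and 6.04 in the Adm-low tumors. Its lowest Adm-high value lay above its highest Adm-low value, at a difference of 1.91 (SE 0.31), yet its limma adjusted p was 0.0534, outside the threshold. A dimmer probe set differed by 0.95. Egln1, the related hydroxylase that sets the basal level of HIF, differed by 0.17 (limma adjusted p = 0.433). Hif1a was 11.63 ± 0.25 against 11.62 ± 0.18 (SD, n = 5 each), a difference of 0.01 (SE 0.13, limma adjusted p = 0.978). Epas1, the HIF-2 alpha subunit, was 11.14 to 11.54 against 10.39 to 11.54, a difference of 0.38 (limma adjusted p = 0.493). Vhl differed by 0.12 (limma adjusted p = 0.636). These are RNA levels, and HIF alpha subunits are set mainly by protein stability, which arrays do not read. Of 13 members in this list, 2 had a positive difference at an unadjusted p under 0.05 (15.4%, beside 7.46% of all genes). The median difference was 0.08.

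Among targets for survival, pH, matrix and chromatin, 10 of 30 measured members had a positive difference at an unadjusted p under 0.05 (33.3%, beside 7.46% of all genes) and none a negative one (beside 2.71%). At any p, 23 of the 30 had a positive and 7 a negative difference, from -1.23 to 1.13. With log2 Adm as a covariate over 17 tumors, 10 had a positive slope at an unadjusted p under 0.05 (33.3%, beside 8% of all genes). A negative slope at that p was found for 2 (6.67%, beside 2.44%). In that fit 2 of the 30, and 4 of the 71 members of all hypoxia lists, had a positive slope at a limma adjusted p under 0.05. Over all 18192 genes 43 had one. Ankrd37, a small ankyrin protein strongly induced by hypoxia in many cells, was 8.17, 7.74, 8.19, 7.80 and 7.97 against 7.34, 7.0, 6.36, 7.21 and 6.29, a difference of 1.13 (limma adjusted p = 0.0838). Ak4, a mitochondrial adenylate kinase, differed by 1.11 (limma adjusted p = 0.11). Bnip3, which drives removal of mitochondria, differed by 0.67 with groups that did not overlap (limma adjusted p = 0.255). Plod2 and P4ha1, which modify collagen, differed by 0.59 and 0.50, and Kdm3a, a histone demethylase, by 0.34. Their groups overlapped, at limma adjusted p values of 0.325, 0.468 and 0.383. Car9, a carbonic anhydrase at the cell surface and a standard hypoxia marker, was 5.51 to 6.09 in the Adm-high and 5.34 to 6.19 in the Adm-low tumors. Its difference was 0.16 (limma adjusted p = 0.752), and these levels lie below the median of every array. Ndrg1 and Ddit4, stress genes that hypoxia induces, differed by 0.26 and 0.29 with overlapping groups.

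Together, the 4 hypoxia lists had 71 of 78 members measured. Of these, 27 had a positive difference at an unadjusted p under 0.05 (38%, beside 7.46% of all genes), none had a negative one, and 1 passed after adjustment over all genes. The groups did not overlap, with the Adm-high tumors higher, for 12 members, against 307 of all genes (1.69%), and for none with the Adm-high tumors lower, against 68 of all genes (0.374%). The median member differed by 0.29, and at any p 59 members had a positive difference and 12 a negative one, beside 63.1% positive over all genes. The mean over all 71 genes was 9.58, 9.46, 9.51, 9.63 and 9.32 in the Adm-high tumors and 9.17, 9.29, 9.17, 9.31 and 9.09 in the Adm-low tumors, so that the margin between mad564 and mad565 was small. For proliferation genes, oxidative phosphorylation genes and MYC targets, the median differences were -0.03, -0.003 and 0.02. At an unadjusted p under 0.05, 1 of 23 proliferation genes was lower, Ccna2 by -0.20 (4.35%, beside 2.71% of all genes). None of the 23 was higher (beside 7.46%). None of 23 oxidative phosphorylation genes or 17 MYC targets had such a p. The counts of proliferation genes and MYC targets differed where muscle genes were taken into account. With the muscle mean as a covariate, 7 of 23 proliferation genes had a negative difference at that p (30.4%, beside 4.16% of all genes) and the median was -0.16, and without mad549, mad550 and mad553 again 7 of 23 proliferation genes and 3 of 17 MYC targets had one (30.4% and 17.6%, beside 4.18% of all genes). No proliferation gene or MYC target had a positive difference at that p in these fits. The unfolded protein and ATF4 response had 1 of 22 members with a positive difference at that p (4.55%, beside 7.46% of all genes). Heat shock genes had 0 of 12 at that p in either direction (0%, beside 7.46% higher and 2.71% lower over all genes). Their list means were 11.11 to 13.37 in the Adm-low tumors.

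**Figure D3:**
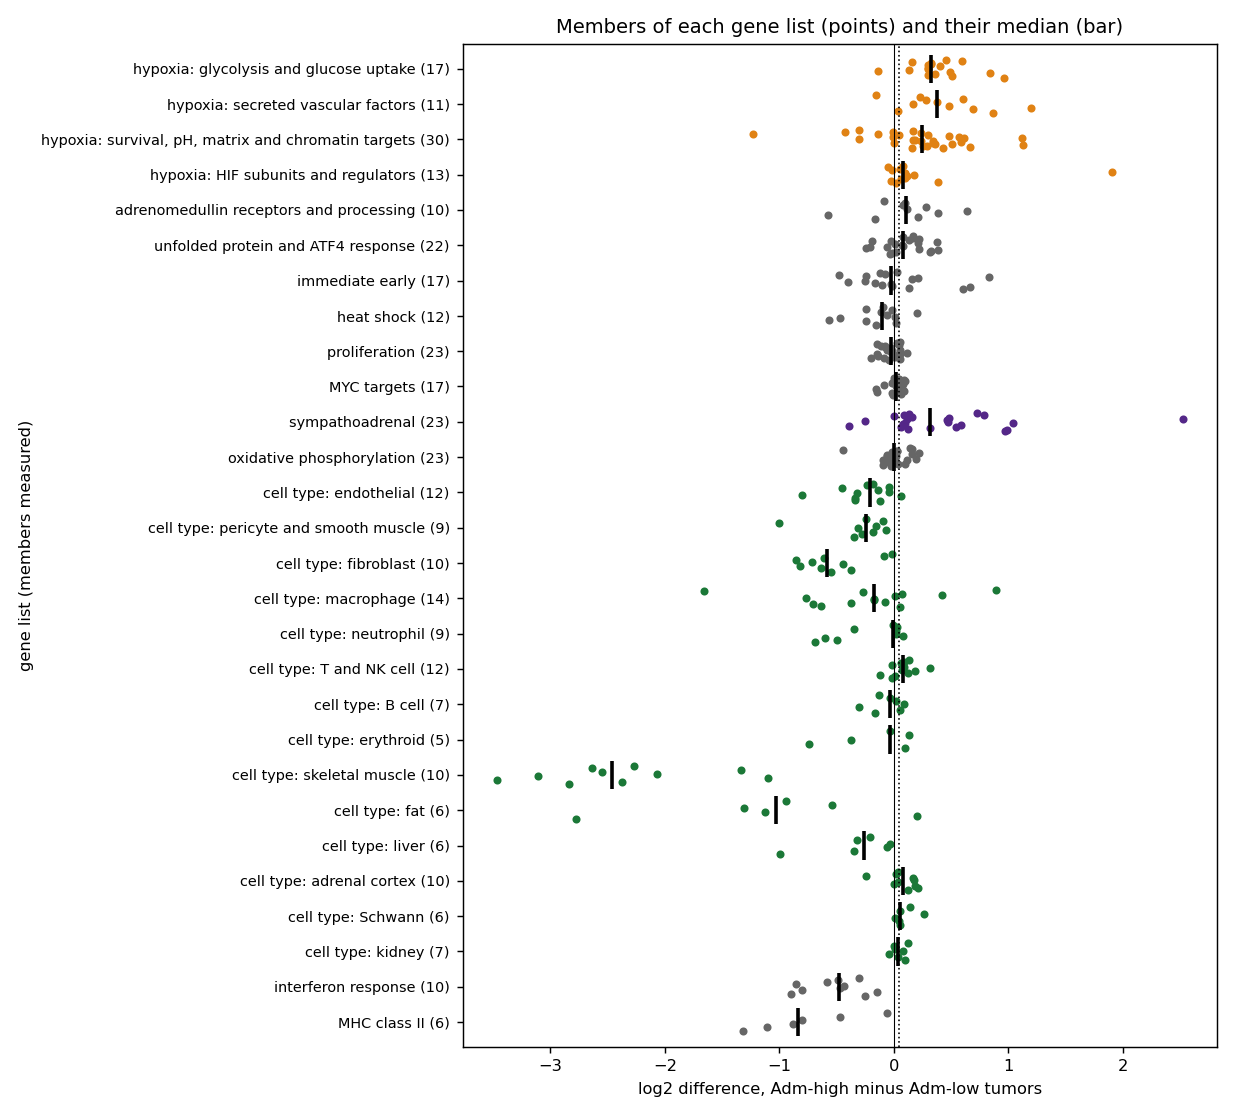
Each point is a measured member of a gene list at its log2 difference between Adm-high and Adm-low tumors; bars are list medians and the dotted line the median of all genes at 0.04. Hypoxia lists (orange) and the sympathoadrenal list (purple) have medians of 0.08 to 0.37, while skeletal muscle and fat (green) have medians of -2.46 and -1.03.

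The share of hypoxia members stayed above the share of all genes in each of the fits that changed the tumors or the covariates of this comparison, but not in the tumors outside it. With arrays centred it was 24 of 71 (33.8%) against 4.58% of all genes. With the mean of the muscle genes as a covariate it was 18 of 71 (25.4%) against 6.32% of all genes, and without the tumors with high muscle genes 20 of 71 (28.2%) against 7.09%. With the mean of the fat genes as a covariate it was 15 of 71 (21.1%) against 1.97%. In that fit no gene was higher in Adm-high at a limma adjusted p under 0.05, 359 were at an unadjusted p under 0.05, and the fat genes themselves nearly separated the groups. Leaving out 1 tumor at a time gave 21 to 29 of 71, while the share of all genes ran from 5.07% to 8.69%.

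The sympathoadrenal list held 3 of the called genes, more than any other list. Npy, neuropeptide Y, released with noradrenaline from sympathetic nerves, was 12.06, 11.89, 11.11, 11.86 and 11.35 in the Adm-high tumors and 8.65, 8.85, 9.06, 9.81 and 9.27 in the Adm-low tumors. All Adm-high values lay above all Adm-low values, at a log2 difference of 2.53 (SE 0.23), 5.76-fold, with a limma adjusted p of 0.00277. Dbh, the enzyme that turns dopamine into noradrenaline, was 10.21, 10.30, 10.15, 10.28 and 10.44 against 9.32, 9.71, 9.15, 9.10 and 9.15. Its difference was 0.99 (SE 0.12, limma adjusted p = 0.0129), and its 3 probe sets differed by 0.76 to 1.33. Slc18a1, the vesicular monoamine transporter VMAT1, was 8.28, 7.55, 7.91, 7.36 and 7.51 against 6.88, 6.57, 6.75, 6.73 and 6.45, a difference of 1.04 (SE 0.16, limma adjusted p = 0.0494). Its call was lost in each of 10 fits that left out 1 tumor, with differences of 0.90 to 1.13.

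The call of Dbh was lost without mad561 (limma adjusted p = 0.0577). Other members of the lineage list did not pass. Th differed by 0.97 (limma adjusted p = 0.362) with overlapping groups, Syp, a synaptic vesicle protein, by 0.79 (limma adjusted p = 0.175) and Chga, the chromogranin of dense-core vesicles, by 0.59 (limma adjusted p = 0.173). Isl1, a transcription factor of sympathetic development, differed by -0.25 (limma adjusted p = 0.479). Of 23 measured members, 9 had a positive difference at an unadjusted p under 0.05 (39.1%, beside 7.46% of all genes), 1 a negative one (beside 2.71%), and 3 passed after adjustment (beside 0.0825%). The list mean was 11.10 to 11.37 in the Adm-high and 10.70 to 10.89 in the Adm-low tumors.

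Some of the other called genes encode peptide precursors and proteins of regulated secretion. No gene list was set for such genes, so their share over all genes was not counted. Pomc, the precursor of corticotropin and beta-endorphin, was 10.25, 10.36, 10.28, 11.50 and 10.30 in the Adm-high tumors and 7.27, 7.82, 7.19, 8.87 and 8.75 in the Adm-low tumors. Its difference was 2.56 (SE 0.36), 5.89-fold, with a limma adjusted p of 0.036, and a dimmer probe set differed by 2.20. Vgf, a neuropeptide precursor of dense-core vesicles, was 11.64, 10.01, 10.37, 10.13 and 10.03 against 8.24, 8.86, 8.46, 8.87 and 8.19, a difference of 1.91. Resp18, an endocrine protein of the secretory pathway, differed by 1.57. Doc2b, a calcium sensor of vesicle release, differed by 1.82 (SE 0.23, limma adjusted p = 0.0167), and its call was lost without mad560 or mad561. Unc13a, which primes synaptic vesicles, differed by 0.66, and Rph3al, a Rab effector of exocytosis, by 0.91. The calls of Pomc, Vgf, Resp18, Unc13a and Rph3al each held in at most 2 of the 10 fits that left out 1 tumor.

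The remaining higher genes have varied roles. Slc2a13, a proton and myo-inositol cotransporter most abundant in brain, was 10.93, 9.88, 10.36, 10.17 and 9.94 against 8.23, 8.36, 8.71, 8.82 and 8.25. Its difference was 1.78 (SE 0.20, limma adjusted p = 0.00947), and the groups were separated by more than 1 log2 unit. Galnt6, which starts mucin-type O-glycans, differed by 1.21, C2cd4b by 1.34, Slc35d3 by 1.14 and Ndrg4 by 0.63. Of the 10 fits that left out 1 tumor, the call held in 1 for Galnt6, 4 for C2cd4b, 4 for Slc35d3 and 2 for Ndrg4. For the 9 called genes with further probe sets, all 14 further probe sets differed in the direction of the one used.

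Genes lower in the Adm-high tumors included 2 carbonic anhydrases. Car3, a cytosolic carbonic anhydrase abundant in muscle, fat and liver, was 6.33, 6.42, 7.41, 5.49 and 6.62 in the Adm-high tumors and 13.35, 12.72, 10.81, 9.15 and 11.15 in the Adm-low tumors. Its difference was -4.98 (SE 0.67, limma adjusted p = 0.0294), and its 4 probe sets differed by -4.98 to -0.42. Car2, a fast carbonic anhydrase of red cells, kidney and bone, was 5.69 to 6.99 against 7.37 to 7.82, a difference of -1.37 (SE 0.20, limma adjusted p = 0.0494). Lrg1, a secreted glycoprotein of liver and inflamed tissue, was 4.78, 5.02, 4.92, 4.97 and 4.88 against 7.64, 6.77, 6.38, 6.76 and 7.23. Its difference was -2.04 (SE 0.19, limma adjusted p = 0.00277), and all its Adm-high values lay below the median of their arrays. With 1 tumor left out, Lrg1 passed in 10 of 10 fits, Car3 in 3 and Car2 in 1.

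Fat genes moved with these groups, and muscle genes were high in mad553 and mad550 but not in the other Adm-low tumors, at list means of 5.87, 6.17 and 6.86 in mad556, mad565 and mad559. The mean of 6 fat genes was 6.05, 6.25, 7.04, 6.41 and 6.83 in the Adm-high and 8.27, 7.90, 6.74, 7.73 and 7.35 in the Adm-low tumors, and only mad550 lay among the Adm-high values. Of the 6 genes, 4 had a negative difference at an unadjusted p under 0.05 (66.7%) and 1, Lep, a positive one (16.7%). At that p, 2 of the 10 muscle genes had a negative difference (20%). Over all genes, 2.71% had a negative and 7.46% a positive difference at that p. Adiponectin (Adipoq), a fat cell hormone, was 4.66 to 7.05 against 6.33 to 10.56, a difference of -2.78 (limma adjusted p = 0.197). The mad556 tumor, highest in Car3 at 13.35, had a muscle mean of 5.87, a fat mean of 8.27 and Adipoq at 10.56. With the fat mean as a covariate, none of the 18 called genes stayed past the threshold, although all kept their direction. The differences in that fit were 2.02 for Npy, 2.53 for Pomc, 1.14 for Dbh, 1.49 for Slc2a13 and 2.14 for Doc2b, 0.56 for Vegfa, -3.53 for Car3 and -1.60 for Lrg1, and the lowest limma adjusted p among the 18 was 0.241. The median over the hypoxia members was 0.27 in that fit. The part of fat and muscle in the called differences was not tested beyond these fits, and with the fat mean it cannot be told apart from the grouping.

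**Figure D4:**
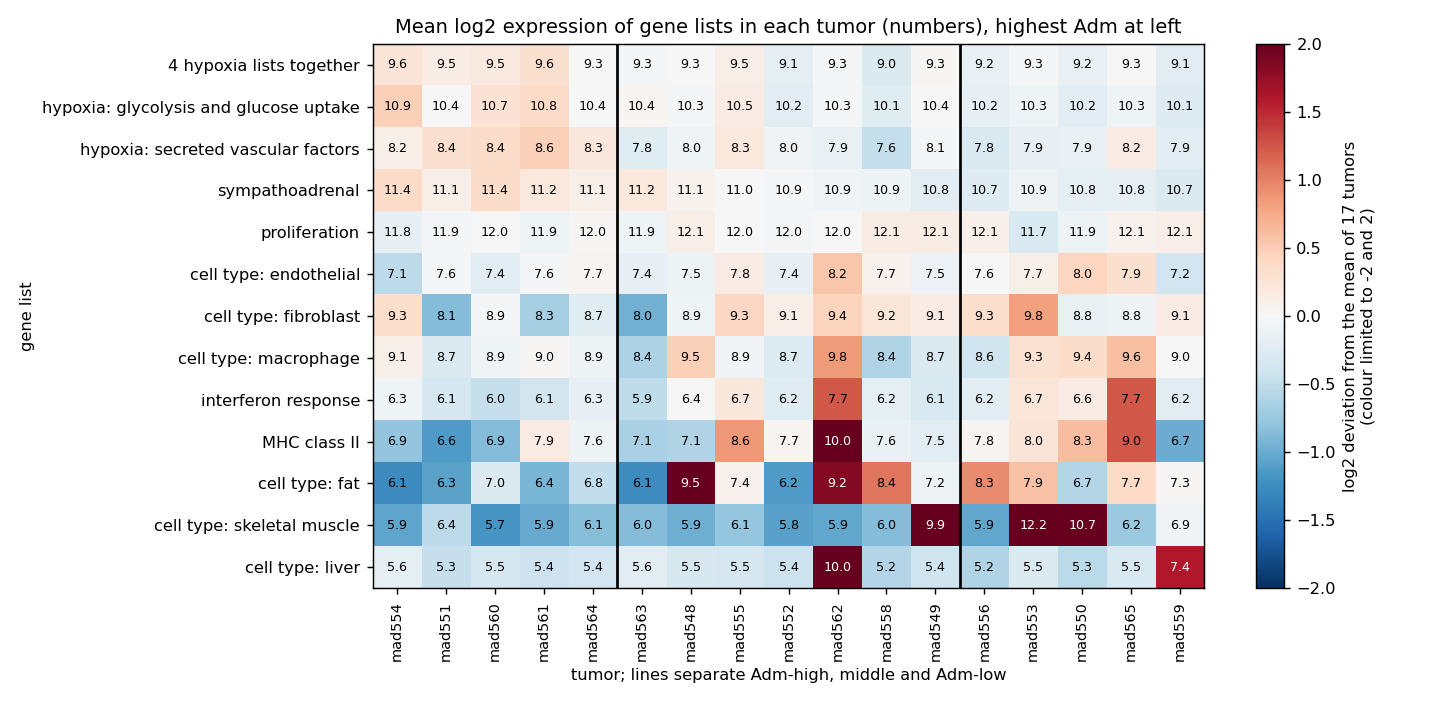
Mean log2 expression of the measured members of 13 gene lists (rows, printed values) in 17 tumors (columns, highest Adm at left, lines between Adm-high, middle and Adm-low); colour shows the deviation from the mean of the 17 tumors and is limited at -2 and 2. Muscle genes are high in mad549, mad553 and mad550, liver genes in mad562 and mad559, and fat genes in mad548, mad562 and mad558 as well as in most Adm-low tumors.

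Among markers of stroma and immune cells, which tumor tissue contains, no member had a limma adjusted p under 0.05. Of 12 endothelial genes, 2 had a negative difference at an unadjusted p under 0.05 and none a positive one, and the list mean was 7.09 to 7.66 in the Adm-high and 7.23 to 8.03 in the Adm-low tumors. Tek, the Tie2 receptor of angiopoietins, differed by -0.80 (limma adjusted p = 0.266). At that p 2.71% of all genes had a negative difference. Fibroblast genes had 3 of 10 and a median of -0.58, macrophage genes 4 of 14 and a median of -0.17, and neutrophil genes 4 of 9 and a median of -0.004, all negative at that p. With the muscle mean as a covariate, these counts were 1 of 10, 1 of 14 and 1 of 9, beside 4.16% of all genes. The macrophage median was 0.06 in that fit. No neutrophil gene had a mean level at or above the median of single-symbol probe sets. The fibroblast mean was 8.07 to 9.28 against 8.79 to 9.76, and the macrophage mean 8.71 to 9.10 against 8.59 to 9.59, so the groups overlapped in both. The macrophage scavenger receptor Cd163 was 4.70 to 5.34 against 5.54 to 7.82, a difference of -1.65 (limma adjusted p = 0.119). Arg1, which other macrophages express, differed by 0.89 (limma adjusted p = 0.54). All 10 interferon response genes and all 6 genes of MHC class II had negative differences, with medians of -0.48 and -0.84. Over all genes, 63.1% had a positive difference. At an unadjusted p under 0.05 these were 2 of 10 and 1 of 6 members (20% and 16.7%, beside 2.71% of all genes). The counts changed with the fit. With arrays centred they were 3 of 10 and 4 of 6 (30% and 66.7%, beside 4.64% of all genes). With the muscle mean as a covariate they were 1 of 10 and 0 of 6 (10% and 0%, beside 4.16%). Just 2 of the interferon genes had a mean level at or above the median of single-symbol probe sets. Ifit1 was 7.62 in mad565 against 4.73 to 5.64 in the other Adm-low tumors. The part of stroma and immune cells in the called differences was not tested.

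The receptor side of adrenomedullin showed no shared direction. Calcrl, its receptor, differed by -0.16 (limma adjusted p = 0.835). Ramp2, the partner that gives the receptor its selectivity and that endothelium expresses, was 6.41 to 7.12 against 6.82 to 8.31, a difference of -0.57 (limma adjusted p = 0.45). Pam, which amidates peptides such as adrenomedullin and neuropeptide Y, differed by 0.63 (limma adjusted p = 0.395). Of 10 measured members, 1 had a positive and 1 a negative difference at an unadjusted p under 0.05 (10% each, beside 7.46% and 2.71% of all genes).

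The 7 tumors between the groups, which the comparison did not use, gave a separate reading with their own Adm levels of 10.84 to 11.64. A fit of each gene on log2 Adm in these tumors gave no gene with an adjusted p under 0.05 (0% of 18192, limma). At an unadjusted p under 0.05, 1037 genes had a positive slope (5.7%) and 442 a negative one (2.43%). The slope was positive for 15 of the 15 genes called higher and negative for 3 of the 3 called lower, beside 57.2% positive over all genes. Of the 18, 6 had an unadjusted p under 0.05, and these were Doc2b, Slc18a1, Ndrg4, C2cd4b, Dbh and Car3. Without mad563, the tumor with the most Adm among them, 14 of 15 and 3 of 3 slopes kept these directions, and that of Rph3al turned to -0.25. The slope of Vegfa was 0.37 log2 units per log2 unit of Adm (unadjusted p = 0.281 from limma) and that of Npy 0.36 (unadjusted p = 0.735). Of the 71 hypoxia members, 2 had a positive slope at that p (2.82%) and 1 a negative one. Among the 27 with a positive difference between the groups at an unadjusted p under 0.05, 20 had a positive slope, with and without mad563. Ankrd37 had a slope of 0.84, Bnip3 one of 0.42 and Pgf one of 0.37, while Egln3 had -0.01 and Slc2a1 -0.15, none of them with an unadjusted p under 0.05. The mad563 tumor had Dbh at 10.56, above every Adm-high tumor, but Npy at 9.07 and Slc2a1 at 8.69, within or below the Adm-low values.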

How the data were processed

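Each of 17 TH-MYCN tumors was hybridized to 1 Affymetrix whole-genome mouse array after two-cycle labelling of 100 ng RNA. The deposited log2 values were made by the authors with RMA per the labels, which also name Partek 6.4. Within the study's text, RMA is named in the results and MAS5 in the methods, and the deposited values run from 3.28 to 15.59 on a log2 scale. The study describes 18 tumors and 17 were analysed here. RMA makes array distributions alike and compresses low values. The files give no scan date.

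Of 45101 probe sets, 64 are array controls, 34945 carry 1 gene symbol in the platform annotation, 932 several, and 9160 are unnamed here. Each of 18193 genes was represented by its single-symbol probe set with the highest mean. The top 5 and bottom 5 tumors by Adm were compared for 18192 genes with limma 3.58.1 in R 4.3.3 (lmFit, eBayes, two-sided, Benjamini-Hochberg, threshold 0.05), and figures were drawn with Matplotlib 3.10.9. Adm and the tested genes come from the same arrays. The test was tried on simulated data. Nothing says whether tumors shared a litter, so p-values measure the spread between these tumors only.

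The members and the 28 gene lists (384 entries, 357 measured) were chosen with earlier results of these data known. Genes were named by a rule: the 10 largest differences per direction among the called genes, filled by the lowest p, a set list of hypoxia genes and any called member, the 2 largest differences per other list, and Xist. Dbh, Rph3al, Unc13a, Ndrg4, Lep and the members named for an unadjusted p under 0.05 lie outside it and were named after their values were seen. So were mad563's values and the genes listed by slope. In all, 24 alternative fits were made, 10 of them leaving out 1 tumor. The fits with the fat mean and over the 7 middle tumors were chosen after seeing the data.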

Additional observations from a re-analysis of the deposited data

Results flagged for a closer look

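Among 290 groups of 5 tumors looked at, 15 had a tumor far from the other 4 by Dixon's test, and chance gives such a flag in about 1 of 20 groups. In the Adm-high tumors, Pomc was 11.50 in mad561 against 10.25 to 10.36 in the others, and Vgf was 11.64 in mad554 against 10.01 to 10.37. Stc2, a secreted glycoprotein of the hypoxia lists, was 6.67 in mad554 against 5.98 to 6.09, and Isl1 was 12.43 in the same tumor against 12.94 or more. Odc1 was 12.82 in mad560 against 13.05 to 13.12, and Alas2, of red cell heme synthesis, was 8.23 in mad561 against 9.59 to 10.13. The mean of the oxidative phosphorylation genes was 11.88 in mad551 against 12.02 to 12.04, that of the B cell genes was 5.38 in mad561 against 5.25 to 5.28, and that of the adrenal cortex genes was 6.71 in mad554 against 6.36 to 6.46.

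In the Adm-low tumors, mad553 had Slc35d3 at 6.96 against 7.42 to 7.55, Hif1a at 11.30 against 11.64 to 11.73 and Xist at 8.03 against 12.84 to 13.62. Alb was 10.26 in mad559 against 4.79 to 5.13, and the liver list mean was 7.39 in that tumor against 5.19 to 5.50. Cd79b, a B cell receptor subunit, was 6.35 in mad550 against 5.01 to 5.23.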

How the results depend on the processing

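The count of 15 genes higher and 3 lower depended on the fit. It was 17 and 0 with 17 tumors in 3 groups, 43 and 1 with log2 Adm as a covariate over 17 tumors (11 and 0 shared with the 5 against 5 comparison), 1 and 2 with 4 tumors a group, 8 and 4 with 6, 5 and 4 with groups from the other Adm probe set, and 22 and 2 with the mean of a gene's probe sets. It was 15 and 3 for genes at or above the median level, but not for the same genes. Unc13a and Lrg1 were not tested in that fit, and 1 member of the HIF regulator list passed in it. The count was 10 and 2 with arrays centred, 16 and 3 with an intensity trend and robust variance, and 6 and 1 with Xist as a covariate. It was 4 and 1 with the muscle mean, and 7 and 2 without mad549, mad550 and mad553. The fat mean as a covariate left 0 and 1, and the 7 middle tumors gave 0 and 0. Leaving out 1 tumor at a time gave 2 to 14 higher and 1 to 4 lower. The cause of these changes was not tested. Vegfa passed in 5 of 24 alternatives, at adjusted p values of 0.0181 to 0.847, and Npy and Dbh each in 20. The 18 called genes kept their direction in the alternatives that tested them, which were 24 for each gene but 23 for Unc13a and Lrg1. The slope of Rph3al turned to -0.25 when mad563 was also left out of the 7 middle tumors. Over named genes, 253 calls were lost and 18 gained among all alternatives. No fit without mad562 was made, as that tumor lies between the groups and is not in the comparison. The same holds for mad549, so the fit without mad549, mad550 and mad553 removed only mad550 and mad553 from the groups compared. No paired analysis was possible because replicate numbers name single tumors of the same labelled group. Levels near the lowest deposited value of 3.28 carry little information on differences.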

Other observations

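Leptin (Lep) was the exception among fat genes, with a log2 difference of 0.20 between Adm-high and Adm-low tumors, against -2.78 for Adipoq and -1.12 for Fabp4, a fatty acid carrier of fat cells. Klf4, a transcription factor of the immediate early list, had a difference of 0.83 with groups that did not overlap (7.67 to 8.44 against 7.04 to 7.61, limma adjusted p = 0.11). Of 17 immediate early genes, 2 had a positive difference at an unadjusted p under 0.05, Klf4 and Fosl2 (11.8%, beside 7.46% of all genes). None had a negative one (beside 2.71%).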
